A study of Homo sapiens with 4 samples.

Results

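The genes described here are the long intergenic non-coding RNA (LINC) genes that gave a signal in every library of a long-read RNA sequencing experiment in H9 cells. Members were chosen by name and by detection: a gene listed as lncRNA, with a name of LINC followed by a digit, and a value above 0 in all 4 libraries. This rule took 51 of the 317 LINC genes listed, out of 1577 lncRNA genes and 16174 genes in all. Because the rule used the level in each library, the levels that follow are a description.

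H9 is a long-established human embryonic stem cell line, kept here in the primed state. All cells compared, controls included, had received a doxycycline-inducible dCas9-BFP-KRAB (Cas9 without nuclease activity, joined to a blue fluorescent protein and the KRAB repressor domain), integrated with a piggyBac transposase and kept by puromycin selection. They carried either 4 pooled guides against SNHG26, a small nucleolar RNA host gene, or control guides, and all were harvested after 2 or 3 days of doxycycline. Each guide arm has 1 library per day, so each arm and each day has 2 libraries, and the labels do not state that these came from separate cultures. Any p-value therefore measures only the spread between these libraries. The labels' protocols describe no cloning after selection.

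Nanopore reads of PCR-amplified cDNA from poly(A) RNA were counted, and values are TPM, transcript levels scaled to a common sum in each library. These TPM divide by the genomic span of a transcript, introns included, so 1 read on a short span counts for more than 1 read on a long one. Over 10 kb, a single read gave 0.653 to 0.803 TPM. At the upper bound, which takes the full listed span of each gene, the libraries held 1044055 and 1220265 reads with SNHG26 guides on days 2 and 3, and 947338 and 1135936 with control guides. SNHG26 itself read 0 and 0.933 TPM with its guides, against 2.98 and 4.03 TPM with control guides, so each knockdown library lay below both control libraries. Of 13 listed markers of primed stem cells, 12 had a value in all 4 libraries, with POU5F1 at 1049.6 to 1212 TPM, SOX2 at 241 to 307 TPM and NANOG at 22.4 to 35.5 TPM, and ZIC2 was listed at 0 throughout. The summed level of that list was 1681 and 1833 TPM with SNHG26 guides and 1814 and 1927 TPM with control guides. Of 3 listed mesendoderm markers, EOMES and FOXA2 were at 0 throughout and MIXL1 had 1.98 TPM in the control library of day 3 only. Of 3 listed amnion markers, ISL1 and GABRP were at 0 and KRT7 had 0.417 to 1.29 TPM in the day 3 libraries. The fibroblast gene COL1A1 had 2.98 to 4.21 TPM in every library, and the neuroectoderm markers were not analysed here. In bulk RNA, fewer cells that make a transcript and less transcript per cell cannot be told apart.

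The LINC names are given by rule to long RNAs that lie between protein-coding genes and have no assigned function, so the group is held together by nomenclature and not by a shared pathway. Such RNAs are capped, spliced and polyadenylated like mRNAs, but are usually scarcer and more restricted to 1 cell type. In human pluripotent cells some long RNAs are read almost only in that state, among them ESRG, LINC00458 and LINC00678.

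Some members are laid out head to head, and the stretch of 1 such pair is shown because both RNAs were read in every library and their starts lie apart. LINC00526 runs on the minus strand from a RefSeq start at base 5238029 of chromosome 18, and LINC00667 runs on the plus strand from base 5238100, 71 bases away. The line gives chr18:5237980-5238149, plus strand, from RefSeq (GRCh38.p14), where the promoter windows of both genes overlap, and capitals mark the bases from 1 start to the other.

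LINC00526 and LINC00667: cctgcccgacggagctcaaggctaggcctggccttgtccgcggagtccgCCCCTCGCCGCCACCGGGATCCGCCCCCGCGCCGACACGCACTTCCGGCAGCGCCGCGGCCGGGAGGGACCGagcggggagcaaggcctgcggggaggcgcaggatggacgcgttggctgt

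This stretch of 170 bases holds 24 CG dinucleotides and has a GC content of 76.5%. LINC00526 read 7.78 and 17.4 TPM with SNHG26 guides on days 2 and 3, and 12.9 and 10.7 TPM with control guides. LINC00667 read 2.48 and 1.52 TPM with SNHG26 guides, and 2.04 and 4.25 TPM with control guides. The 2 RNAs were thus highest in different libraries, but on few reads. On a span of 1875 bases the values of LINC00526 are 2 and 5 reads with SNHG26 guides and 3 and 3 with control guides. LINC00667 had at most 17.9 and 12.3 reads with SNHG26 guides and 13.4 and 33.4 with control guides. Their listed spans also overlap by 1565 bases, and 773 bases of their transcripts are the same on opposite strands. The strand setting of the counting is not given in the sources used here, so reads of the overlap could belong to either gene. In a second pair, LINC00662 on the minus strand and LINC02987 on the plus strand, RefSeq starts at bases 27793940 and 27793895 of chromosome 19 lie 45 bases apart, and the RNAs overlap at their 5′ ends. LINC02987 has a further RefSeq start, and the levels of both are given with the comparisons.

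Mean levels of the 51 members ran from 0.0517 to 1408 TPM, with a median of 4.32 TPM. Of these, 3 had a mean of at least 100 TPM, 16 of at least 10 TPM and 39 of at least 1 TPM, and 32 had at least 1 TPM in each library. Values below refer to days 2 and 3 in that order.

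**Figure D1:**
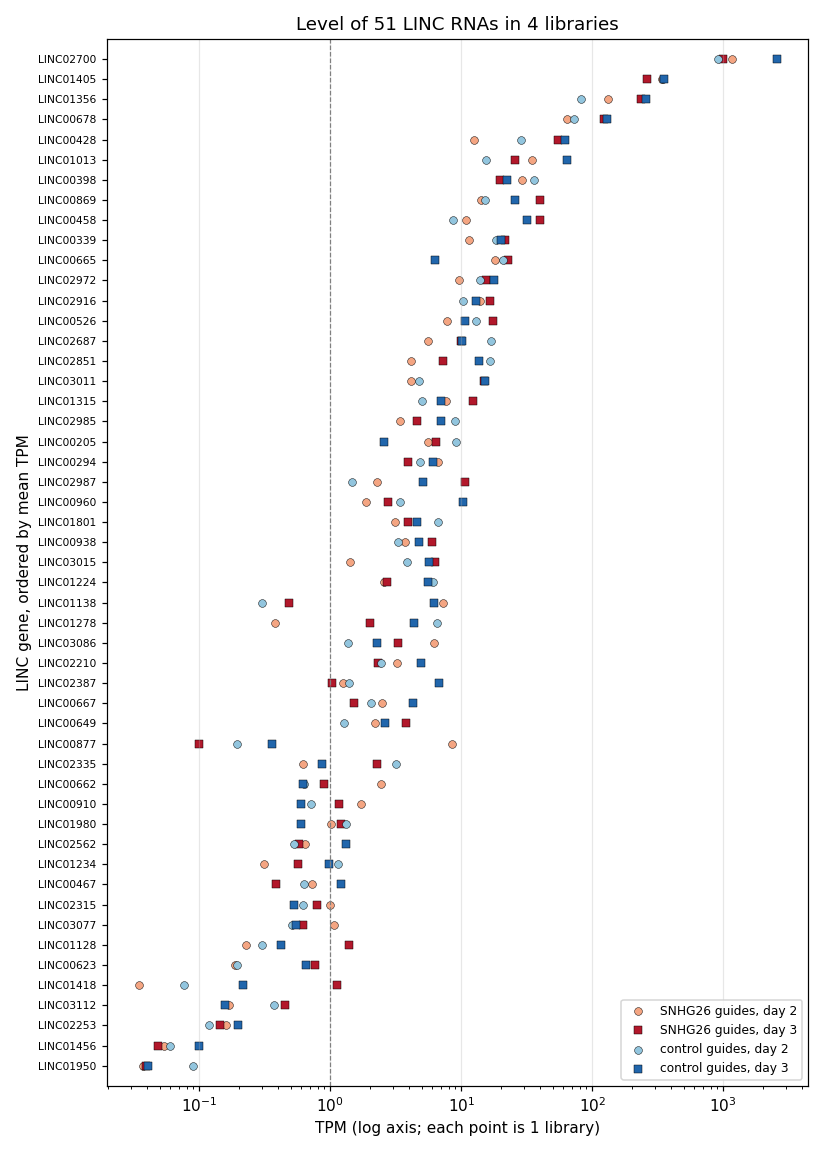
TPM of each of the 51 LINC genes in each of the 4 libraries, on a log axis, with genes ordered by their mean; circles are day 2, squares day 3, red shades SNHG26 guides and blue shades control guides, and the dashed line marks 1 TPM. LINC02700 stands above all others at 909 to 2555 TPM, and LINC00877 and LINC01418 show the widest gaps between libraries.

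LINC02700 (chr11:94638018-94652884, plus strand) was the highest member. It read 1169.7 and 998 TPM with SNHG26 guides, and 909 and 2555 TPM with control guides. The control library of day 3 stood alone at the top, and the other 3 libraries lay close together. This 1 gene held 49.7% to 68.9% of the summed TPM of the members in a library. The members together came to 1965 and 2009 TPM with SNHG26 guides, and to 1706 and 3710.3 TPM with control guides, which is 0.178% to 0.388% of the listed TPM. Without LINC02700 the sums were 795 and 1011 TPM with SNHG26 guides and 797 and 1155 TPM with control guides. The excess of the control library of day 3 in the sum therefore lay mostly in LINC02700.

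LINC01405 (chr12:110934267-110973930, plus strand) was second, and varied least between libraries among the 12 highest members. It read 343 and 263 TPM with SNHG26 guides, and 345 and 354 TPM with control guides. LINC01356 (chr1:112820170-112850643, minus strand), also called LIMp27, came next, and read 131 and 234 TPM with SNHG26 guides, and 81.7 and 259 TPM with control guides. Both of its day 3 libraries lay above both of its day 2 libraries. LINC00678 (chr11:27604164-27634778, minus strand), a stem-cell RNA, followed and showed the same order, with 64.7 and 122 TPM with SNHG26 guides and 73.0 and 129.8 TPM with control guides. These 4 genes held 80.5% to 88.9% of the members' TPM.

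A second tier of 8 genes had means between 14.2 and 39.3 TPM. LINC00428 (chr13:42842235-42872962, minus strand) read 12.6 and 54.4 TPM with SNHG26 guides, and 28.5 and 61.8 TPM with control guides. LINC01013 (chr6:131901797-132169995, plus strand), also called AERRIE and studied in endothelial cells, read 34.4 and 25.6 TPM with SNHG26 guides, and 15.4 and 63.9 TPM with control guides. Like LINC02700, it was highest in the control library of day 3 and had no common order of the days in the 2 arms. LINC00398 (chr13:30803176-30897148, plus strand) read 29.2 and 19.7 TPM with SNHG26 guides, and 36.2 and 22.2 TPM with control guides, and was the only member with both day 3 libraries below both day 2 libraries. LINC00869 (chr1:149558215-149705722, plus strand), listed in RefSeq also as FAM91A2, read 14.2 and 40.0 TPM with SNHG26 guides, and 15.3 and 25.9 TPM with control guides. LINC00458 (chr13:53950255-54270397, minus strand), also called HBL1 and described as a brake on heart muscle formation from stem cells, read 10.9 and 39.9 TPM with SNHG26 guides, and 8.65 and 31.6 TPM with control guides. In both arms LINC00869 and LINC00458 were higher on day 3.

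LINC00339 (chr1:22024558-22031223, plus strand) read 11.5 and 21.7 TPM with SNHG26 guides, and 18.3 and 20 TPM with control guides. LINC00665 (chr19:36259540-36331770, minus strand), from which the micropeptide CIP2A-BP has been reported, read 18.2 and 22.9 TPM with SNHG26 guides, and 20.8 and 6.34 TPM with control guides. Its control library of day 3 was the low one. LINC02972 (chr12:8788215-8795790, plus strand) read 9.67 and 15.5 TPM with SNHG26 guides, and 13.8 and 17.8 TPM with control guides. From LINC00428 down to LINC02972 each gene's range over the libraries overlapped that of its neighbours in the order of means, so the order of neighbours there is not resolved. LINC01356 and LINC00678 overlapped too, while LINC02700, LINC01405 and the pair below them were apart in every library.

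Few reads stood behind many of these values. For 6 members, every value was a whole number of reads, within 0.001 read, on a single span. The smallest such fit gave 1 to 9 reads per library. LINC00938 had 5 and 9 reads with SNHG26 guides and 4 and 7 with control guides, and LINC00294 had 3 and 2 against 2 and 3. LINC02916 had 3 and 4 against 2 and 3 in its smallest fit, on 1561 bases, and multiples on longer spans fit as well. Its full listed span gives at most 27.4 and 36.6 reads with SNHG26 guides and 18.3 and 27.4 with control guides. LINC02916 thus stood at a mean of 13.5 TPM, the thirteenth rank, on as few as 12 reads in all. These 3, and LINC00526 of the other whole-read members, were named after their values were seen. At the upper bound, 23 of the 51 members had at most 10 reads in their lowest library. The protocols describe no molecular identifiers and 14 cycles of PCR, so read numbers cover counting error only.

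Detection itself set the group apart from the other LINC genes by definition, and the share detected can be set beside other classes. Of the 317 LINC genes, 101 were listed at 0 in all libraries, 99 had a value in 1 library, 35 in 2, 31 in 3 and 51 in 4 (16.1%). Of lncRNA genes with antisense names, 20.3% had a value in all 4 libraries, of those with divergent names 20.5%, and of those with other names 25.0%. Hosts of microRNAs were lower, at 9.09% (3 of 33), and of 15 genes with intronic or overlapping names 0 had a value in every library. Small nucleolar RNA host genes reached 80.8% (21 of 26) and protein-coding genes 57.1% (7812 of 13693). All lncRNA other than LINC together reached 22.2% (280 of 1260). Library by library, 102 and 129 LINC genes had a value with SNHG26 guides and 108 and 127 with control guides, the deeper day 3 libraries giving more.

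**Figure D2:**
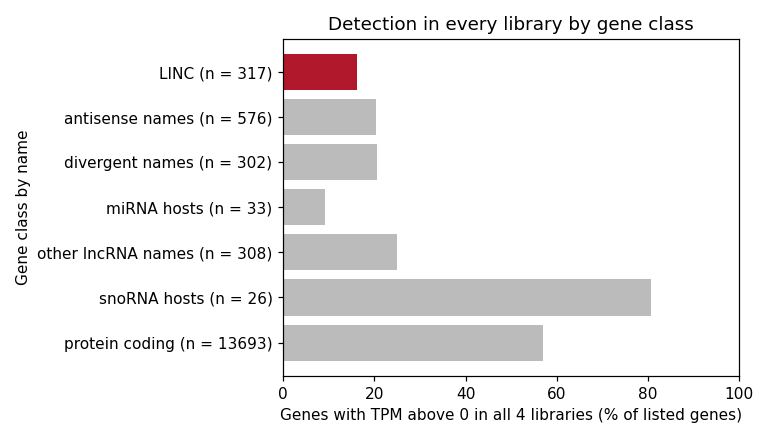
Percent of the listed genes of each naming class with a TPM above 0 in all 4 libraries, with the number of listed genes in brackets; each bar is a share over genes and has no error bar. LINC genes reached 16.1%, below antisense names at 20.3% and far below small nucleolar RNA hosts at 80.8%.

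Among genes read in every library, LINC members had a median level of 4.32 TPM, other lncRNA genes 6.37 TPM and protein-coding genes 3.94 TPM. The listed spans had medians of 65556, 29766 and 29853 bases in the same order, and the same number of reads gives a lower TPM on a longer span. The highest library exceeded the lowest by a median of 2.91-fold for members, 2.65-fold for other lncRNA genes and 2.21-fold for protein-coding genes. Within the group, 16 members ranged over more than 4-fold and 9 over less than 2-fold.

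Just inside the threshold, the lowest value of any member was 0.0346 TPM, for LINC01418 with SNHG26 guides on day 2. That gene read 1.12 TPM on day 3 with the same guides, and 0.0762 and 0.217 TPM with control guides. LINC01950 read 0.0372 to 0.0895 TPM and LINC01456 read 0.0485 to 0.0998 TPM, which is 5 reads over the 4 libraries for LINC01456. LINC02253 read 0.118 to 0.197 TPM. LINC00877 owed its mean of 2.31 TPM to 1 library, with 8.57 and 0.10 TPM with SNHG26 guides and 0.193 and 0.357 TPM with control guides. Just outside the threshold, LINC02245 read 24.3 and 24.1 TPM with SNHG26 guides and 26.7 TPM with control guides on day 2, but was listed at 0 in the control library of day 3. LINC02440, LINC01480, LINC00847 and LINC01816 were likewise at 0 in a single library, with means of 9.11, 5.91, 5.24 and 4.05 TPM. Being in or out of the group thus turned on 1 library for genes of moderate level.

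Day 3 was then compared with day 2, over both arms. Differences are on the log2(TPM + 1) scale, which understates the change of low genes, and were tested with limma over the 8274 genes that averaged 1 TPM or more, 39 of them members. No member passed an adjusted p of 0.05, against 3 of all genes tested (0.0363%), a count that fell to 0 when the guide arm was the replicate block. At an unadjusted p under 0.05 there were 7 members (17.9%), all higher on day 3, beside 6.61% of all genes tested in either direction. Of the 39, 12 had both day 3 libraries above both day 2 libraries (30.8%), beside 17.1% of all genes tested, and 1 had both below, beside 18.4%. Over all 51 members, with the 12 under the filter, 15 were higher and 1 lower in this sense. The matching sets have a value in all 4 libraries and no filter. Of 280 other lncRNA genes there, 25.0% were higher and 18.2% lower, and of all 8318 genes 18.0% and 20.4%. With 2 libraries against 2, an exact two-sided permutation test of a single gene cannot go below p = 0.333.

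LINC00458 had the smallest p of the members. It was 3.66-fold higher on day 3 in both arms, with a mean of 35.7 ± 5.83 TPM (SD, n = 2) against 9.77 ± 1.59 TPM on day 2. The fitted difference was 1.77 ± 0.27 (SE), with an unadjusted limma p of 0.00289 and an adjusted p of 0.257. LINC03011 (chr7:66491001-66495758, plus strand) read 4.12 and 14.9 TPM with SNHG26 guides and 4.76 and 15.1 TPM with control guides. It differed by 1.56 ± 0.25, with an adjusted limma p of 0.310, and at most 2.69 to 10.9 reads stood behind each value. LINC00678 differed by 0.86 ± 0.17, with an adjusted limma p of 0.409, and was 1.88-fold and 1.78-fold higher in the 2 arms. The folds of LINC03011 were 3.62 and 3.16 in the 2 arms, so these 3 genes gave folds close to each other in both arms, yet none passed the adjusted threshold.

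LINC01356 differed by 1.24 ± 0.29 (limma, adjusted p = 0.493) and LINC00428 by 1.56 ± 0.45 (limma, adjusted p = 0.628). LINC00869 differed by 1.08 ± 0.30, and LINC02987 by 1.56 ± 0.47, with adjusted limma p-values of 0.628 and 0.658. LINC02987 (chr19:27793421-28007928, plus strand) read 2.28 and 10.7 TPM with SNHG26 guides and 1.47 and 5.06 TPM with control guides. In each of these genes the 2 days did not overlap, but the size of the step differed between arms. In the other direction, LINC00398 differed by -0.61 ± 0.24 (limma, adjusted p = 0.760), at 0.676-fold and 0.614-fold in the 2 arms. LINC00662 differed by -0.43 ± 0.62 and LINC00910 by -0.22 ± 0.56, and both were lower on day 3 within each arm, but their days overlapped across the arms.

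The other 5 of the 12 members without overlap follow, of which LINC03015, LINC00938 and LINC00649 were named after their values were seen. LINC00339 was 1.89-fold and 1.09-fold higher on day 3 in the 2 arms, and LINC02972 1.61-fold and 1.29-fold. LINC03015 read 1.42 and 6.35 TPM with SNHG26 guides, and 3.87 and 5.65 TPM with control guides. LINC00938 and LINC00649 were 1.54-fold and 1.84-fold higher over both arms, at means of 4.44 and 2.46 TPM. Under the filter, LINC01128, LINC00623 and LINC01418 were higher in both day 3 libraries as well, each at a mean below 1 TPM, and the first 2 of these were also named after their values were seen.

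The median difference of the 39 members was 0.27, and 0.34 within each arm, beside 0.01 over all genes tested. It ranged from 0.07, without the control library of day 3, to 0.45, without the control library of day 2. Other lncRNA genes with a value in all 4 libraries were higher on day 3 without overlap in 70 of 280 cases (25.0%) and lower in 51 (18.2%), and all 8318 genes with such values in 18.0% and 20.4%. The day 3 libraries were also deeper, at 1135936 and 1220265 reads against 947338 and 1044055 at the upper bound, and the part of depth in the difference was not tested.

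**Figure D3:**
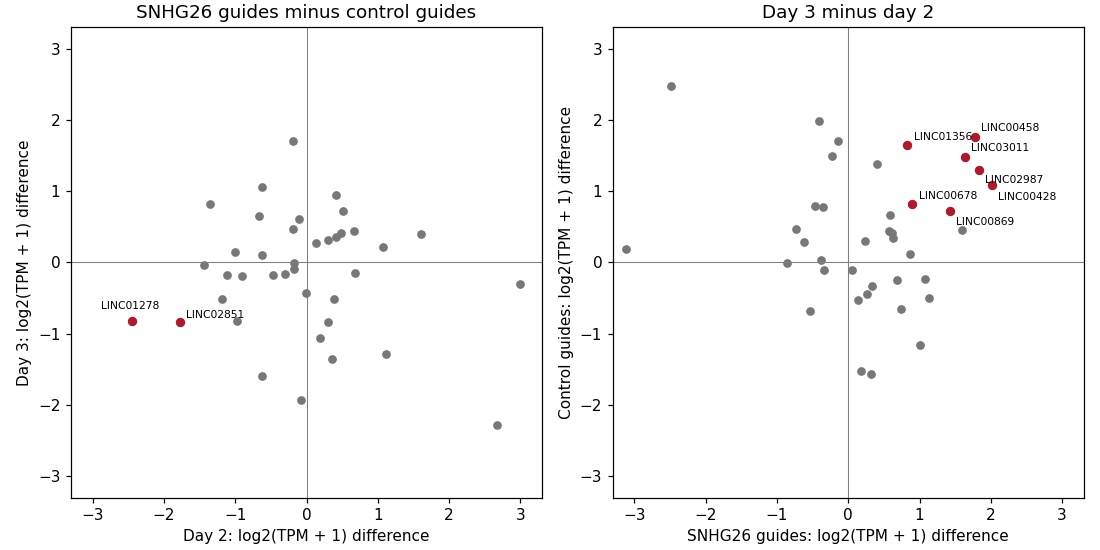
Each point is 1 of the 39 LINC genes above the filter; the left panel sets the difference between SNHG26 and control guides on day 2 (x axis) against day 3 (y axis), and the right panel the difference between days with SNHG26 guides (x axis) against control guides (y axis), all as log2(TPM + 1). Named red points had an unadjusted limma p under 0.05: 2 for the guides, both lower, and 7 for the days, all higher, and none passed after adjustment.

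SNHG26 guides were compared with control guides to ask what repression of SNHG26 does to the other transcripts. No member differed at an adjusted p of 0.05 by limma, and neither did any of the 8274 genes tested (0%), SNHG26 included (-1.69 ± 0.58, unadjusted p = 0.0417, adjusted p = 0.935). The smallest adjusted p of a member was 0.935. At an unadjusted p under 0.05 there were 2 members (5.13%), both lower with SNHG26 guides, beside 4.07% of all genes tested. The groups did not overlap for 5 of the 39 members in the higher direction (12.8%), beside 16.1% of all genes tested. In the lower direction there were 9 (23.1%), beside 13.2%. Over all 51 members, 7 were higher and 12 lower in this sense, beside 16.8% and 14.5% of the 8318 genes with a value in all 4 libraries. Other lncRNA genes with a value in all 4 libraries were higher without overlap in 30 of 280 cases (10.7%) and lower in 48 (17.1%). The median difference was -0.09, beside 0.04 over all genes tested. Its sign turned to 0.20 without the SNHG26 library of day 2, and it was -0.24 without that of day 3, -0.32 without the control library of day 2 and -0.03 without that of day 3.

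LINC02851 (chr9:6644522-6727438, plus strand) read 4.12 and 7.24 TPM with SNHG26 guides, and 16.5 and 13.7 TPM with control guides. It differed by -1.31 ± 0.38 (limma, unadjusted p = 0.0251) and was the member with the smallest p. LINC01278 (chrX:63222993-63561095, minus strand) read 0.379 and 2.02 TPM with SNHG26 guides, and 6.54 and 4.34 TPM with control guides, a difference of -1.64 ± 0.57 (limma, unadjusted p = 0.0436). LINC01224 (chr19:23399092-23416186, minus strand) read 2.58 and 2.70 TPM with SNHG26 guides, and 6.04 and 5.56 TPM with control guides, a difference of -0.90 ± 0.33 (limma, unadjusted p = 0.0519). In these 3 genes both libraries with SNHG26 guides lay below both control libraries, and each p was 0.935 after limma's adjustment over all genes. LINC02851 and LINC01278 each overlap a protein-coding gene on the same strand, given below with the positions, so their reads could belong to either gene.

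LINC00960 read 1.86 and 2.77 TPM with SNHG26 guides, and 3.41 and 10.4 TPM with control guides. LINC02387 read 1.25 and 1.03 TPM with SNHG26 guides, and 1.38 and 6.73 TPM with control guides. That is at most 1.09 and 1.00 reads with SNHG26 guides, and 1.09 and 6.36 with control guides. The gaps of both genes lay mainly in the control library of day 3. LINC03086 (chr20:2207217-2213151, plus strand) read 6.15 and 3.31 TPM with SNHG26 guides, and 1.36 and 2.27 TPM with control guides, which is 5 and 3 reads against 1 and 2. LINC01315 read 7.60 and 12.2 TPM with SNHG26 guides, and 5.03 and 6.99 TPM with control guides. LINC00910 read 1.73 and 1.16 TPM with SNHG26 guides, and 0.710 and 0.594 TPM with control guides. These 3 genes were higher in both libraries with SNHG26 guides, by fitted differences of 1.00 ± 0.47, 0.62 ± 0.39 and 0.56 ± 0.55.

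LINC00662, an RNA studied mostly in tumours, read 2.43 and 0.888 TPM with SNHG26 guides, and 0.631 and 0.622 TPM with control guides, a difference of 0.64 ± 0.61. LINC02987 differed by 0.68 ± 0.85, with overlapping arms. LINC01405 was lower in both libraries with SNHG26 guides by a fitted difference of only -0.22 ± 0.20.

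Further members whose arms did not overlap were named after their values were seen. LINC02687 read 5.56 and 9.96 TPM with SNHG26 guides, and 16.8 and 10.2 TPM with control guides. LINC02985 read 3.40 and 4.57 TPM with SNHG26 guides, and 9.03 and 6.99 TPM with control guides. LINC01801 read 3.12 and 3.92 TPM with SNHG26 guides, and 6.66 and 4.6 TPM with control guides. These 3 were lower with SNHG26 guides. LINC02916 was higher, on 3 and 4 reads against 2 and 3 in its smallest whole-read fit. Under the filter, LINC01234, from which the micropeptide MBOP has been reported, read 0.314 and 0.563 TPM with SNHG26 guides, and 1.14 and 0.986 TPM with control guides. LINC01456 and LINC01950, given above near the threshold, were lower without overlap as well. In the higher direction, LINC02315 read 0.988 and 0.797 TPM with SNHG26 guides, and 0.618 and 0.532 TPM with control guides. LINC03077 read 1.07 and 0.618 TPM with SNHG26 guides, and 0.506 and 0.552 TPM with control guides.

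A guide difference that itself differed between days was found in no member at an adjusted p of 0.05 by limma. Of all genes tested, 8 passed (0.0967%), a count that fell to 0 with the day as a replicate block. Each arm has 1 library per day, so the spread in this contrast holds the guide and day differences and no replicate error. At an unadjusted p under 0.05 there was 1 member, beside 3.52% of all genes tested. This was LINC01138 (chr1:148254495-148529415, minus strand), an RNA studied in liver cancer, named here after its values were seen. It read 7.24 and 0.482 TPM with SNHG26 guides, and 0.299 and 6.19 TPM with control guides. The halved difference between the guide changes on day 2 and day 3 was 2.47 ± 0.41 (limma, unadjusted p = 0.00338, adjusted p = 0.428). The fitted guide and day differences of LINC01138, which enter that SE, were 0.19 and -0.00. PDE4DIPP6, which overlaps it on the opposite strand by 30448 bases, read 15.2 TPM in the same SNHG26 library of day 2 and was listed at 0 in the other 3. LINC02700 and LINC01013 had values of 0.86 ± 0.41 and 1.20 ± 0.45 in this contrast, with adjusted limma p-values of 0.961.

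Position was the next property that the rule did not use. The members lay on 20 chromosomes, with 7 on chromosome 1, 6 on chromosome 12 and 5 on chromosome 19. By the coordinates of the table, 20 overlapped a listed gene on the opposite strand. Without such an overlap, 2 started within 5 kb of an opposite-strand gene pointing away, and 29 did neither. Protein-coding genes were overlapped by 8 members, although the name denotes an intergenic gene. Where an overlap is antisense, reads of the partners cannot be separated without a known strand setting. LINC01278 overlaps SPIN4, LINC02851 overlaps KDM4C and LINC00294 overlaps TCP11L1 on the same strand, where a strand setting would not separate them. SPIN4 read 23.1 and 27.0 TPM with SNHG26 guides, and 21.5 and 14.7 TPM with control guides. KDM4C read 0.0385 to 0.181 TPM.

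By its listed span, LINC01013 covers CCN2, the gene of a secreted matrix protein, on the opposite strand over all 3197 bases of that gene. Its RefSeq promoter windows start at bases 132132322 and 132133775, past the end of CCN2 at base 131951372. CCN2 read 43.3 and 26.6 TPM with SNHG26 guides, and 30.2 and 6.30 TPM with control guides. It was lowest in the library where LINC01013 was highest. CCN2 was highest in the SNHG26 library of day 2, where LINC01013 was second highest at 34.4 TPM. LINC00678 lies wholly inside BDNF-AS, the antisense gene of the neurotrophin BDNF, which had 0.0427 TPM in 1 library and 0 in the others. LINC01356 overlaps SLC16A1-AS1 by 1161 bases, and that gene read 0 and 2.21 TPM with SNHG26 guides and 3.76 and 5.42 TPM with control guides. The partners of LINC00678 and LINC01356 thus stood far below the members. LINC02916 overlaps HNRNPF, a gene of an RNA-binding protein, by 1337 bases, and HNRNPF read 45.9 to 74.9 TPM. LINC00649 overlaps ATP5PO, a gene of the mitochondrial ATP synthase, by 281 bases, with ATP5PO at 147 to 225 TPM and LINC00649 at 1.28 to 3.78 TPM. These 2 members had partners far above them.

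Some members also share sequence with each other. GENCODE release 29, which is not known to be the annotation the authors counted with, was used to compare transcripts lying in the members' spans. Transcripts in LINC00623 and LINC00869 shared 870 bases at 98.9% identity, and transcripts in LINC00869 and LINC01138 shared 600 bases at 99.3%. The last pair are PPIAL4C and PPIAL4G, small intronless gene copies that lie within the spans. LINC00649 and LINC02253 shared 434 bases at 93.3% identity. Levels of these members are uncertain to the extent that reads could be placed in the other copy. LINC00623 read 0.186 and 0.768 TPM with SNHG26 guides and 0.194 and 0.654 TPM with control guides, the same order of libraries by day as LINC00869.

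Promoter windows of 300 bases (250 before a start and 50 after) were found in the RefSeq table (GRCh38.p14) for 33 members, with 41 windows. Their median GC content was 59.0%, against 65.0% for other lncRNA genes with a value in all 4 libraries and 58.7% for all windows. Windows on chromosomes 8 and Y were left out of all these sets. At least 15 CG dinucleotides were present in 51.2% of the members' windows, 78.5% of those of the other lncRNA genes and 49.0% of all windows. The letters CCAAT, on either strand, were found in 56.1% of the members' windows, 32.6% of the other lncRNA windows and 34.6% of all. TATAAA on either strand was found in 3 of the members' windows (7.32%), in LINC00910, LINC01013 and LINC01278. It was in 5.79% of the other lncRNA windows and 11.5% of all. The octamer ATGCAAAT on either strand was in 0 of 41 windows, 0.826% of the other lncRNA windows and 1.77% of all. These are descriptions of letters in the windows, and some genes have more than 1 window.

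Beside the members, 12 long RNAs described in stem cells were listed, and 9 could be tested. By limma none passed the adjusted threshold for days or guides. For the days, 3 of the 9 had an unadjusted limma p under 0.05 (LINC00458, LINC00678 and ESRG), beside 6.61% of all genes tested. LINC00458 and LINC00678 are members, already counted above. On day 3, 6 were higher and 3 lower, with a median of 0.86, beside 50.7% higher and a median of 0.01 over all genes tested. The 6 include LINC01108, with a value only in the SNHG26 library of day 3 (6.51 TPM), and FIRRE. FIRRE read 0.606 and 0.957 TPM with SNHG26 guides, and 3.15 and 19.9 TPM with control guides. Its day difference was 1.31 ± 1.35, and both its libraries with SNHG26 guides lay below both control libraries. The highest of the 12, MIR302CHG, the host of a stem-cell microRNA cluster, read 5448 to 6134 TPM. DANCR, a small nucleolar RNA host that restrains differentiation, read 1368 to 1927 TPM. LNCPRESS1, a p53-regulated stem-cell RNA, read 258 to 287 TPM. ESRG read 91.0 and 194 TPM with SNHG26 guides, and 104 and 246 TPM with control guides, a difference between days of 1.15 ± 0.20 (limma, adjusted p = 0.338). Its day order was that of LINC00458 and LINC00678, while the 3 RNAs before it varied less between libraries. LINC-ROR, which is known to sponge microRNAs in stem cells, was listed at 0 in all libraries. Of 18 widely expressed lncRNA genes, 12 were tested and none passed, with a median of 0.14 for the days and -0.01 for the guides.

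Of 12 LINC genes with a described role, 5 were listed and 4 were members, LINC00665, LINC00667, LINC00662 and LINC00467. LINC00467, from which the micropeptide ASAP has been reported, read 0.722 and 0.387 TPM with SNHG26 guides and 0.634 and 1.21 TPM with control guides, under the filter. LINC00665 differed by 0.76 ± 0.62 between guides and by -0.63 ± 0.65 between days. LINC00667 differed by -0.43 ± 0.50 and 0.16 ± 0.51 in the same order. None of the 3 that could be tested passed, and for LINC00665 and LINC00667 each difference had opposite signs on the 2 days or in the 2 arms.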

How the data were processed

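Poly(A) RNA of 4 H9 libraries was sequenced as PCR-amplified nanopore cDNA. The values used are TPM per gene in a single table deposited by the authors, with a column for each library. The submitters' processing notes name minimap2 2.24-r1122 and GRCh38. The counting tool, annotation release, strand setting and filters are not given in the sources used here. Whole-read steps in the low values gave the TPM worth of 1 read in each library (0.729, 0.653, 0.803 and 0.672 TPM on 10 kb). Because these steps depend on each gene's span, no count model was run.

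Libraries were grouped by the guides and days in the labels. The 8274 genes that averaged 1 TPM or more were tested on log2(TPM + 1) by limma (version 3.58.1, under R 4.3.3, moderated variances with a trend on the mean) and Benjamini-Hochberg adjustment at 0.05. The code was first run on simulated guide data, with changes placed only in genes of higher level and each gene's spread capped at the median. That run does not cover low or widely varying genes, or the day and crossed fits. Day was not in the guide fit. Libraries pair across arms by the day of doxycycline in the labels. About the arm means, same-day libraries correlated at 0.0464 over 8274 genes, which sets the day difference of 1 arm against that of the other. About the day means, same-arm libraries correlated at -0.00651, which sets the guide differences of the days against each other. Neither difference thus went together over all genes tested. Sequences were compared with blastn 2.17.0.

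The members, the lists (stem-cell, widely expressed and described-role RNAs, and cell type markers) and the tests were chosen with earlier results of these data known. Named members are the 12 highest, the 5 each way with the largest guide or day change of 1 sign, those on the lists, and the 5 nearest the detection threshold on each side; others are marked as named after their values were seen. The alternatives were leaving out each library, the replicate block, no variance trend, quantile or median ratio scaling, pseudocounts of 0.1 or 5, a filter at 5 TPM or none, and members with at least 1 TPM in all 4 libraries.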

Additional observations from a re-analysis of the deposited data

How the results depend on the processing

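The number of members past the threshold was 0 for the guides, the days and the crossed contrast under every alternative run, and the number of all genes past it was 0 for the guides under all of them. The count of all genes between days went from 3 to 0 with each library left out (0 to 0), without the variance trend, after quantile normalization, without a filter, and with pseudocounts of 0.1 and 5. For the crossed contrast the 8 genes became 13 under a filter at 5 TPM, 14 at a pseudocount of 0.1 and 0 at one of 5, and 0 without a filter, without the variance trend and with each library left out (0 to 0). With the replicate block, the counts for days and for the crossed contrast were 0. The block changed no other count of calls. It is the day of doxycycline for the guides and the crossed contrast, and the guide arm for the days.

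The members' median guide difference (-0.09) was -0.11 with a pseudocount of 0.1, -0.11 with 5, -0.04 without a filter, -0.12 after quantile normalization, -0.13 after median ratio scaling and -0.18 for members with at least 1 TPM in every library. It ranged from -0.32 to 0.20 when a library was left out. The median day difference (0.27) was 0.29, 0.12, 0.22, 0.29 and 0.28 under the first 5 of these settings, 0.49 under a filter at 5 TPM and 0.49 for members with at least 1 TPM in every library. It ranged from 0.07 to 0.45 when a library was left out. The cause of these shifts was not tested.

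Of 314 values of single genes under the alternatives that kept all libraries, 314 kept their direction and 0 passed the threshold. When a library was left out, with the lone library of an arm assumed to vary like the others, 140 of 164 kept it and 24 reversed. The ranges over the 4 libraries left out that crossed 0 were as follows. For the guides, they were -0.69 to 0.18 for LINC00339, -0.57 to 0.11 for LINC00398, -1.66 to 0.36 for LINC00428, -0.58 to 1.20 for LINC00458, -0.03 to 1.54 for LINC00665, -0.58 to 0.32 for LINC00678, -0.46 to 0.97 for LINC00869, -1.08 to 0.90 for LINC01013, -0.56 to 1.09 for LINC01356, -1.24 to 0.25 for LINC02700 and -0.24 to 1.59 for LINC02987. For the days, they were -0.97 to 0.10 for LINC00662, -1.48 to 0.23 for LINC00665, -0.37 to 0.69 for LINC00667, -0.56 to 0.12 for LINC00910, -0.39 to 0.04 for LINC01405 and -0.05 to 1.31 for LINC02700. Depth limits members of few reads, where 1 read more or less moves the level by a large share.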
